A study of Homo sapiens with 24 samples.

Results

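SG21 is a line of HGC27 gastric carcinoma cells, an established human line, that is labelled as a TMEM97 knockout, and its RNA was compared between medium labelled LPDS and medium labelled FBS. The comparison was chosen by the line and medium in the sample labels and uses 6 of the 24 libraries of the series, 3 from LPDS and 3 from FBS. The 8 groups of 3 libraries are parental HGC27, the control-guide line SGCTRL, SG12 and SG21, each kept for 3 days in one of these media. Parental cells and SGCTRL are wild type per the labels, and SG12 and SG21 are both given as TMEM97 knockouts. The base medium was a high-glucose DMEM in all groups. The labels do not spell out either name. FBS is commonly short for fetal bovine serum, and LPDS for serum depleted of lipoproteins. The guide sites, the edits, and whether SG21 is a single clone are not given in the sources used here. The question is how cells labelled as lacking TMEM97 change their RNA when lipoproteins are withdrawn.

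Cells take up cholesterol from lipoproteins and also make it from acetyl-CoA through the mevalonate pathway. When sterols run low in the endoplasmic reticulum, the membrane-bound factors SREBP-1 and SREBP-2 are cut, enter the nucleus and raise the genes of sterol synthesis, lipoprotein uptake and fatty acid synthesis, often together with the factor NF-Y. TMEM97, the sigma-2 receptor, sits in membranes, is a partner of the cholesterol transporter NPC1 and is encoded by a sterol-responsive gene.

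The 6 libraries held 2.55 to 3.96 M reads counted to genes, and 94.5% to 94.6% of the uniquely aligned reads were counted to no gene. The kit keeps strand, and most counts lay on the strand opposite to the gene an entry is named after. A gene is therefore read here under the entry that covers its exons on the other strand, which is given in parentheses at first mention and called its source gene, and 2740 protein-coding genes could be read in this way. The overlap samples only part of each gene, so levels in CPM (reads scaled to a common library total) are compared between media and not between genes. LPDS replicates 2 and 3 stood apart from the other 4 libraries in their mapping statistics. Ambiguous reads made up 2.15% and 2.18% of their reads on genes, against 2.71% in LPDS replicate 1 and 2.58% to 2.66% in the FBS libraries, and reads aligned more than once made up 18.1% and 17.2% of reads, against 10.9% and 11.8% to 14.0%. All 6 SGCTRL libraries share the low share of ambiguous reads. A fit with a term for this split compares LPDS replicate 1 alone with the 3 FBS libraries, and its values are given where a call ends with it. The replicates are called independent without saying what was separate. The tests rest on the spread among replicates over all 24 libraries, which may be technical. A gene passed, and is said to have risen or fallen, at a Benjamini-Hochberg adjusted p under 0.05 over all 12822 entries tested.

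TMEM97 RNA rose with LPDS in SG21. TMEM97 (IFT20), on chromosome 17 at 28319095 to 28328685 in hg38, was at 76.2, 72.9 and 78.8 CPM in FBS and at 120.5, 122.3 and 128.0 CPM in LPDS. The 3 LPDS libraries lay close together, and all were above the FBS libraries. The log2 fold change was 0.70 ± 0.12 (SE, edgeR adjusted p = 0.000202), and it was 0.67 with the split term (adjusted p = 0.0381). IFT20 covers 361 bases at the 3' end of TMEM97, so this level does not check an edit upstream, and RNA remained measurable under the knockout label. In bulk RNA, fewer cells that express a gene and less RNA per cell cannot be told apart.

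Enzymes of cholesterol synthesis rose in SG21 under LPDS. Of the 21 listed enzymes 6 could be read, and 4 of them rose, none fell and 2 did not pass, while 101 of all 2740 source genes rose, 3.69%. The median log2 fold change of the 6 was 0.72, beside 0.01 over all source genes. HMGCS1 (ENSG00000261604), which makes HMG-CoA, was at 1255, 1131 and 1298 CPM in FBS and at 2522, 2944 and 2859 CPM in LPDS. LSS (ENSG00000223901), which folds the carbon chain into the sterol rings, was at 334.1, 317.8 and 359.2 CPM in FBS and at 603.0, 774.8 and 765.6 CPM in LPDS. ACAT2 (TCP1), the cytosolic thiolase at the head of the pathway, was at 422.9, 355.0 and 410.2 CPM in FBS and at 858.5, 716.6 and 641.3 CPM in LPDS. In each of these genes every LPDS library was well above every FBS library, with LPDS replicate 1 the lowest of the 3 for HMGCS1 and LSS and the highest for ACAT2. The log2 fold changes were 1.18 ± 0.10 for HMGCS1 (edgeR adjusted p = 2.06e-12), 1.08 ± 0.10 for LSS (adjusted p = 5.04e-12) and 0.90 ± 0.10 for ACAT2 (adjusted p = 5.92e-09). All of them passed with the split term as well, at 1.04, 0.84 and 1.12.

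IDI1 (IDI2-AS1), the isopentenyl diphosphate isomerase, divided the LPDS libraries, with 274.8, 263.1 and 289.1 CPM in FBS and 487.3, 244.9 and 225.2 CPM in LPDS. Only LPDS replicate 1 was above the FBS libraries, and replicates 2 and 3 were below them. The fold change over all libraries was 0.21 ± 0.22 (edgeR adjusted p = 0.704), it was 0.82 with the split term (adjusted p = 0.00116), and it was -0.21 without LPDS replicate 1 (adjusted p = 0.365). FDFT1 (ENSG00000255046), squalene synthase, had overlapping groups of 29.1, 37.5 and 28.1 CPM and 28.2, 25.0 and 27.5 CPM, with a log2 fold change of -0.24 ± 0.21 (edgeR adjusted p = 0.622). The entry RUSC1-AS1 covers 693 bases of FDPS, the farnesyl diphosphate synthase, and 398 bases of RUSC1, whose reads cannot be told apart there. It went from 3176, 3056 and 3482 CPM to 6908, 6093 and 5729 CPM, a log2 fold change of 0.95 ± 0.08 (edgeR adjusted p = 8.19e-13).

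**Figure D1:**
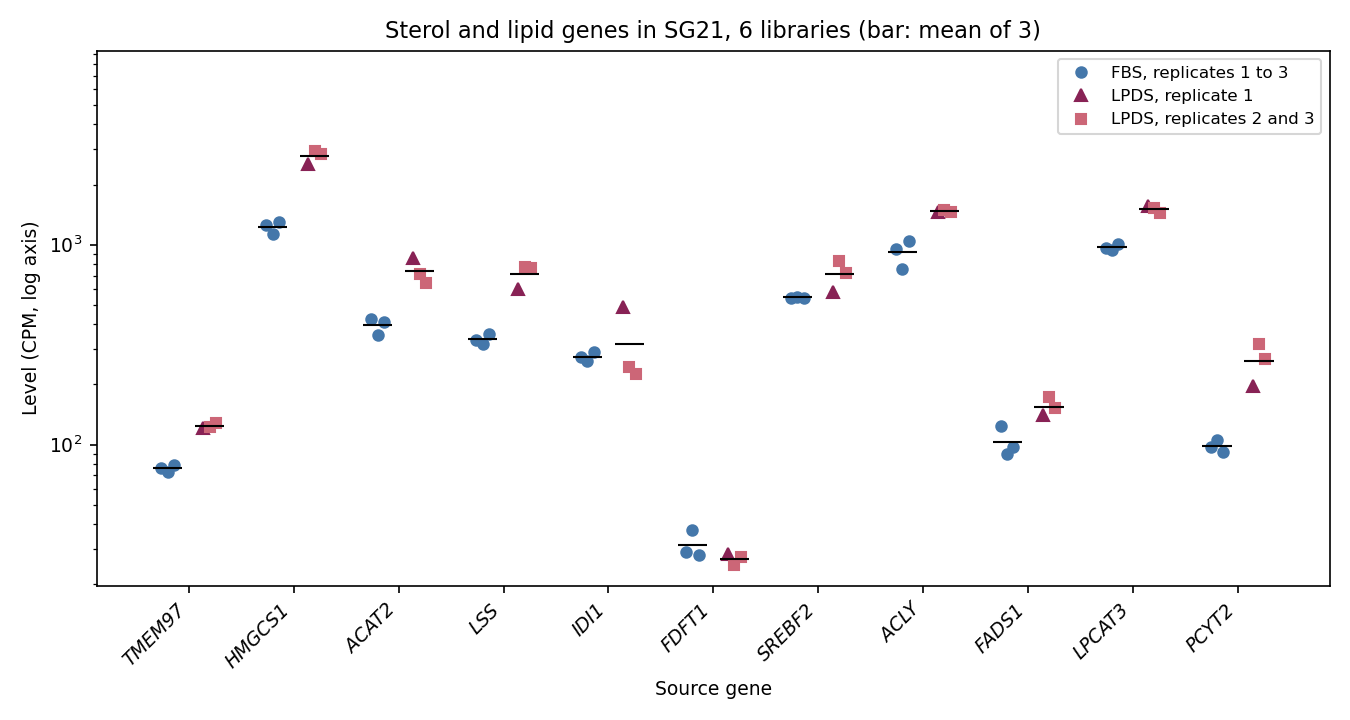
Levels of TMEM97 and of sterol and lipid genes in the 6 SG21 libraries, in CPM on a log axis, with circles for FBS, a triangle for LPDS replicate 1, squares for LPDS replicates 2 and 3, and bars for the mean of 3 libraries. HMGCS1, LSS, ACAT2, PCYT2 and TMEM97 have every LPDS library above every FBS library, while IDI1 is raised in LPDS replicate 1 alone, at 487.3 CPM.

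The genes that rose together allow their promoters to be set side by side. Windows of 250 bases before a RefSeq start (GRCh38.p14) were searched on both strands for the sterol element TCACNCCAC, the NF-Y box CCAAT, the E-box CACGTG and the hypoxia element ACGTG, which lies within the E-box. Of the 11 sterol and lipid genes that passed 8 had a window, and 7 of these 8 held an NF-Y box, against 37.0% of 27305 genes with a window. The box was also in 3 of 4 hypoxia genes that fell and in 12 of 18 of the genes with the largest rises and falls. These sets overlap, so they are not separate comparisons. HMGCS1, LSS, PCYT2, ANKRD37, LOX and P4HA2 are also among the 18, and all of them hold the box. Among the 8, SREBF2 alone held the strict sterol element, against 1.09% of all genes. That element was also in IER2, 1 of the 18 genes with the largest rises and falls, and in the glycolytic gene ALDOC, which fell. None of the 8 held the hypoxia element, against 21.7% of all genes. These matches describe the letters of a window and do not show binding. The 5 windows below are shown because they belong to SREBF2 and to 4 genes that rose and kept their calls under the split term. They are written on the strand of the gene with the sterol element and the NF-Y box, or its reverse complement ATTGG, in capitals.
SREBF2, chr22:41832855-41833104, plus strand: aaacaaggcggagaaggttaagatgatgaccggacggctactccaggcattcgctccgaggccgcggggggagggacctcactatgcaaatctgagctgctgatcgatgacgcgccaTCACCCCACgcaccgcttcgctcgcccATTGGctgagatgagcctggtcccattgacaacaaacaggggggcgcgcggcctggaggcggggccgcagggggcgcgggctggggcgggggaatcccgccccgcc
HMGCS1, chr5:43313413-43313662, minus strand: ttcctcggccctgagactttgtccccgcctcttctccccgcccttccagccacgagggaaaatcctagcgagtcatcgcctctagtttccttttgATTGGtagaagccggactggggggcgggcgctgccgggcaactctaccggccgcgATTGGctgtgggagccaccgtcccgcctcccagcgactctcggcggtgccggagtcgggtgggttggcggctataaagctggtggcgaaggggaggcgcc
LSS, chr21:46228775-46229024, minus strand: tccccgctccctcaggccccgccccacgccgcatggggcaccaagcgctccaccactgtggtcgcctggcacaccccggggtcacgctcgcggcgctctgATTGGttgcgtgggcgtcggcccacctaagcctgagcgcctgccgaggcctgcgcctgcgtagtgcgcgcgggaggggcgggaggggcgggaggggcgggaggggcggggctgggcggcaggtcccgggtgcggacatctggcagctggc
TMEM97, chr17:28318950-28319199, plus strand: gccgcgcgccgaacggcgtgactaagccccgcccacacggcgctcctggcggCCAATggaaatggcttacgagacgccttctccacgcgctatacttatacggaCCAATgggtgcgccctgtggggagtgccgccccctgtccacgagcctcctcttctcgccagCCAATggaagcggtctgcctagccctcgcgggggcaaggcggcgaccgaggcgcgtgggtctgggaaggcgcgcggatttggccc
PCYT2, chr17:81911400-81911649, minus strand: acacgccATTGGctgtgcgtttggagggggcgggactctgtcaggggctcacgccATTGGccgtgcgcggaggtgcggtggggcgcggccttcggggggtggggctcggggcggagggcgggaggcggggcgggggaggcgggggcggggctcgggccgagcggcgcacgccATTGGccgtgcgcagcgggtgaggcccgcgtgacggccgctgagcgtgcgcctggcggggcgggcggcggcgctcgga
The TMEM97 and PCYT2 windows hold 3 NF-Y boxes each, the HMGCS1 window holds 2 and the LSS and SREBF2 windows hold 1. HMGCS1 and PCYT2 each have another listed window, nearer the gene body, that holds none of the searched motifs.

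Of 23 listed genes of sterol uptake and its control 8 could be read. Of these 3 rose, TMEM97 and SREBF2 among them, none fell and 5 did not pass, beside 3.69% of all source genes that rose. The median log2 fold change of the 8 was 0.40, and it was 0.11 with the split term. SREBF2 (SREBF2-AS1), which encodes SREBP-2, was at 543.8, 548.0 and 542.2 CPM in FBS and at 582.6, 827.3 and 721.6 CPM in LPDS. Its LPDS replicate 1 was just above the tight FBS range and the other LPDS libraries were far above it. The log2 fold change was 0.38 ± 0.10 (edgeR adjusted p = 0.0210), it was 0.10 with the split term (adjusted p = 0.877), and the call was also lost without any single FBS library and without LPDS replicate 2 or 3, at 0.27 to 0.38 (adjusted p = 0.0711 to 0.277).

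The other 5 regulators did not pass. NPC1 (RMC1), the lysosomal cholesterol exporter and partner of TMEM97, was at 40.3, 40.0 and 40.1 CPM in FBS and at 63.8, 49.7 and 46.6 CPM in LPDS, a log2 fold change of 0.41 ± 0.17 (edgeR adjusted p = 0.192). Its groups did not overlap, as was the case upward for 13.4% and downward for 11.5% of all source genes. SREBF1 (RAI1), which encodes SREBP-1, was at 24.4, 21.7 and 20.6 CPM in FBS and at 24.1, 36.6 and 34.1 CPM in LPDS, with LPDS replicate 1 inside the FBS range and a log2 fold change of 0.52 ± 0.20 (edgeR adjusted p = 0.152) that was 0.69 without that library (adjusted p = 0.0350). GRAMD1A, which moves sterols from the plasma membrane, LRP1, a lipoprotein receptor, and ERLIN2, of the endoplasmic reticulum, were at -0.56, -0.21 and -0.15. PGRMC1, another partner of TMEM97, and INSIG1, the retention factor of the SREBP escort, had no usable entry on the other strand.

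Genes that supply acetyl-CoA and build fatty acids and phospholipids also rose. Of 26 listed genes 9 could be read, and 4 rose, none fell and 5 did not pass, beside 3.69% of all source genes that rose. The median log2 fold change was 0.54, beside 0.01 over all source genes. PCYT2 (NPB), the nucleotide transferase of phosphatidylethanolamine synthesis, was at 96.9, 105.6 and 91.6 CPM in FBS and at 195.4, 320.1 and 268.9 CPM in LPDS. ACLY (ENSG00000274630), which makes cytosolic acetyl-CoA from citrate, was at 946.7, 755.5 and 1046 CPM in FBS and at 1455, 1490 and 1457 CPM in LPDS. LPCAT3 (EMG1), an acyltransferase that puts polyunsaturated chains into phospholipids and is a target of the sterol receptor LXR, was at 965.4, 938.5 and 1008 CPM in FBS and at 1566, 1530 and 1448 CPM in LPDS. The groups were apart in all of them, as was the case upward for 13.4% of all source genes. PCYT2 was lower in LPDS replicate 1 than in replicates 2 and 3, while ACLY was almost equal in the 3 LPDS libraries. PCYT2 changed by 1.42 ± 0.13 on the log2 scale (edgeR adjusted p = 1.35e-11), ACLY by 0.68 ± 0.09 (adjusted p = 6.82e-07) and LPCAT3 by 0.64 ± 0.09 (adjusted p = 2.95e-06). All passed with the split term too, at 0.99, 0.67 and 0.69.

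FADS1 (FADS2), a fatty acid desaturase, was at 124.0, 89.4 and 96.6 CPM in FBS and at 140.2, 172.0 and 151.5 CPM in LPDS, a log2 fold change of 0.59 ± 0.14 (edgeR adjusted p = 0.00778). The call was lost with the split term, at 0.44 (adjusted p = 0.390), and without FBS replicate 2 or 3 or LPDS replicate 2, at 0.48 to 0.55 (adjusted p = 0.0505 to 0.0898). FADS1 and FADS2 overlap on opposite strands, and the FADS1 entry, which reads FADS2, was at 0.19 ± 0.17. CHKA, DGAT2, ACSL3 and PCYT1A, of glycerolipid and phospholipid synthesis, lay between 0.22 and 0.54 without passing. Of the 3 readable genes of fatty acid oxidation and the 2 of lipid droplets none passed.

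Genes that respond to low oxygen and genes of collagen maturation fell with LPDS in SG21. Of 34 listed hypoxia genes 9 could be read, and 6 fell, none rose and 3 did not pass, while 86 of all 2740 source genes fell, 3.14%. The median log2 fold change of the 9 was -0.63, and it was -0.65 with the split term. ANKRD37 (UFSP2), a target of the factor HIF-1, was at 136.2, 139.3 and 137.0 CPM in FBS and at 49.3, 60.5 and 41.8 CPM in LPDS. LOX (SRFBP1), lysyl oxidase, which cross-links collagen and elastin, was at 600.4, 511.3 and 587.3 CPM in FBS and at 331.5, 328.7 and 299.7 CPM in LPDS. P4HA2 (P4HA2-AS1), a collagen prolyl hydroxylase, was at 190.1, 189.5 and 194.4 CPM in FBS and at 117.9, 122.9 and 110.1 CPM in LPDS. In these genes LPDS replicate 1 lay among or next to the other LPDS libraries, and the groups were wide apart. The log2 fold changes were -1.44 ± 0.14 for ANKRD37 (edgeR adjusted p = 2.49e-10), -0.82 ± 0.10 for LOX (adjusted p = 4.67e-08) and -0.71 ± 0.12 for P4HA2 (adjusted p = 0.000125).

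LOXL2 (LOXL2-AS1), a relative of lysyl oxidase, fell from 238.5, 282.4 and 264.3 CPM to 139.4, 193.6 and 179.8 CPM. It was lowest in LPDS replicate 1, and its log2 fold change was -0.61 ± 0.11 (edgeR adjusted p = 0.000372). These 4 genes kept their calls with the split term, at -1.48, -0.77, -0.70 and -0.91 in the order given. MXI1 (ENSG00000228417), an antagonist of MYC, and ERO1A (ENSG00000258757), an oxidase of protein disulfides, fell by 0.65 and 0.45 on the log2 scale (edgeR adjusted p = 0.0125 and 0.0246). Both calls were lost with the split term, at -0.65 (adjusted p = 0.285) and -0.38 (adjusted p = 0.434), and that of MXI1 also without FBS replicate 2 or LPDS replicate 3, at -0.47 and -0.56 (adjusted p = 0.174 and 0.101). VEGFA (ENSG00000272114), the endothelial growth factor, was at 0.01 ± 0.10 and HIF1A (HIF1A-AS1), the oxygen-regulated factor itself, at -0.20 ± 0.14, and neither passed. Of 22 listed collagen and crosslinking genes 5 could be read. LOX, P4HA2 and LOXL2, which stand in both lists, were the 3 that fell, beside 3.14% of all source genes. LOXL1 and LOXL3 had log2 fold changes of 0.42 ± 0.32 and 1.04 ± 0.37 and did not pass.

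Of the 5 hypoxia genes the naming rule took, 4 had a promoter window, and 3 of these held the hypoxia element, against 21.7% of all genes. The ANKRD37 window is shown as that of the largest fall in this list, and it has 3 matches of ACGTG over both strands, the first pair forming a single E-box, in capitals.
ANKRD37, chr4:185396591-185396840, plus strand: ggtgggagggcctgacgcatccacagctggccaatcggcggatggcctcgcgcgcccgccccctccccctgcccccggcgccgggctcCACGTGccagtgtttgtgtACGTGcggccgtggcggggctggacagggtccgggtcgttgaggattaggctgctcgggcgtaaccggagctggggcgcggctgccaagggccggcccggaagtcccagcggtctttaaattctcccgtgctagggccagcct
LOX has 3 windows, all with the element, but those at chr5:122077175-122077424 and chr5:122077224-122077473 overlap and hold the same match. P4HA2 has 1 window without the element.

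Readable glycolytic genes were lower with LPDS, except 1 that rose. Of 22 listed genes 5 could be read. Of these 3 fell, 1 rose and PDK1, at -0.63, did not pass, beside 3.14% of all source genes that fell and 3.69% that rose. The median log2 fold change of the 5 was -0.53, beside 0.01 over all source genes. GAPDH (ENSG00000269968) was at 51157, 51706 and 56854 CPM in FBS and at 39814, 37965 and 32975 CPM in LPDS, a log2 fold change of -0.53 ± 0.08 (edgeR adjusted p = 5.89e-06). ALDOC (ENSG00000265168), an aldolase, fell from 1268, 1364 and 1532 CPM to 906.7, 982.3 and 806.0 CPM, by 0.63 on the log2 scale (edgeR adjusted p = 1.97e-05). Neither had overlapping groups, as was the case downward for 11.5% of all source genes. Both passed with the split term, at -0.42 and -0.61. ALDOA (ENSG00000274904) was at -0.31 ± 0.09 (edgeR adjusted p = 0.0297) and ENO1 (ENO1-AS1), enolase, at 0.55 ± 0.17 (adjusted p = 0.0482). The ALDOA call was lost with the split term, at -0.17 (adjusted p = 0.681), and without FBS replicate 1 or 3 or LPDS replicate 2 or 3, at -0.34 to -0.25 (adjusted p = 0.0595 to 0.198). The ENO1 call was lost there, at 0.65 (adjusted p = 0.249), and without any single SG21 library except FBS replicate 2, at 0.43 to 0.63 (adjusted p = 0.0523 to 0.272).

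Single members of other lists fell, where 3.14% of all source genes fell. HSP90B1 (UQCC6), a chaperone of the endoplasmic reticulum, went from 1733, 1549 and 1725 CPM to 1319, 1058 and 942.4 CPM, and was the 1 of 4 readable chaperones that fell (-0.59 ± 0.09, edgeR adjusted p = 1.77e-05). TWIST1 (ENSG00000232821), a transcription factor of mesenchymal cells, went from 42.4, 39.0 and 37.6 CPM to 27.1, 17.9 and 26.4 CPM (-0.75 ± 0.19, adjusted p = 0.0114). SPARC (CLMAT3), a matrix glycoprotein, was at -0.45 ± 0.13 (adjusted p = 0.0441), and the other 4 of 6 readable mesenchymal genes, VIM, CD44, ZEB1 and ZEB2, did not pass. In each of these genes that fell the groups did not overlap, as was the case downward for 11.5% of all source genes. With the split term all 3 calls were lost, at -0.34, -0.55 and -0.29 (adjusted p = 0.214, 0.487 and 0.647), and that of SPARC was lost without any single SG21 library except LPDS replicate 1, at -0.48 to -0.36 (adjusted p = 0.0750 to 0.243). The TWIST1 call was lost without FBS replicate 1 or LPDS replicate 2, at -0.70 and -0.55 (adjusted p = 0.05 and 0.176).

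**Figure D2:**
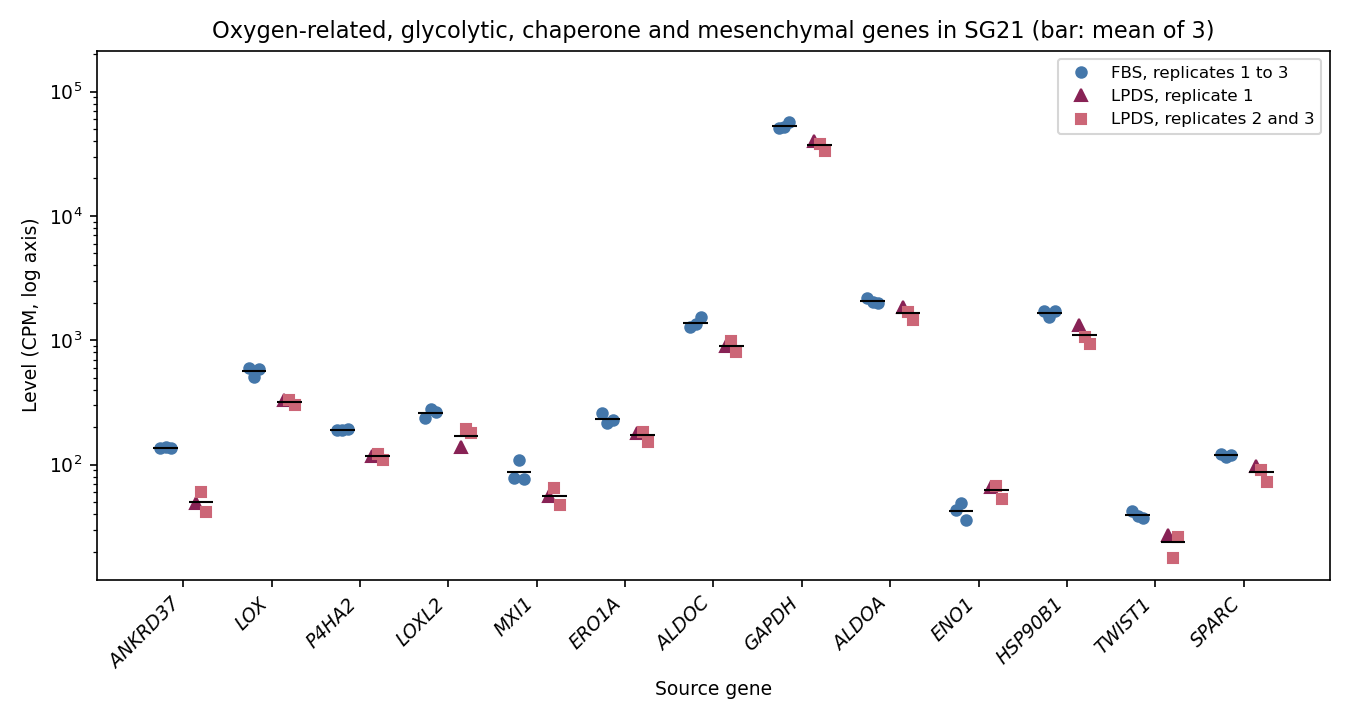
Levels of hypoxia, glycolysis, chaperone and mesenchymal genes in the 6 SG21 libraries, in CPM on a log axis, with circles for FBS, a triangle for LPDS replicate 1, squares for LPDS replicates 2 and 3, and bars for the mean of 3 libraries. ANKRD37 fell from about 137.5 to 50.5 CPM on average, and ENO1 is the 1 gene shown with the LPDS libraries higher.

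Early response and amino acid genes rose in part. IER2 (ENSG00000267598), an immediate early gene, was at 945.0, 1146 and 1043 CPM in FBS and at 1760, 2125 and 2199 CPM in LPDS, a log2 fold change of 0.96 ± 0.14 (edgeR adjusted p = 0.000134). JUNB (HOOK2), a subunit of the factor AP-1, was at 331.4, 321.6 and 300.2 CPM in FBS and at 407.2, 660.4 and 605.7 CPM in LPDS, a change of 0.81 ± 0.17 (adjusted p = 0.00988). LPDS replicate 1 was the lowest LPDS library in both, and both calls were lost with the split term, at 0.75 (adjusted p = 0.0687) and 0.36 (adjusted p = 0.565). The JUNB call was also lost without FBS replicate 3 or LPDS replicate 2 or 3, at 0.69 to 0.78 (adjusted p = 0.0514 to 0.0610). The other 2 readable early genes, NR4A1 and EGR3, did not pass. SLC7A11 (SLC7A11-AS1), the cystine transporter, was at 220.9, 198.2 and 209.1 CPM in FBS and at 344.9, 351.1 and 373.1 CPM in LPDS. Its groups were wide apart and its LPDS libraries alike, with a log2 fold change of 0.77 ± 0.11 (edgeR adjusted p = 2.13e-06) that was 0.72 with the split term (adjusted p = 0.00265).

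SLC7A11 and WARS1 were the 2 of 9 readable genes of the integrated stress response that rose, and none fell, beside 3.69% of all source genes that rose. WARS1 (ENSG00000258666), tryptophanyl-tRNA synthetase, was at 366.0, 299.1 and 354.8 CPM in FBS and at 474.7, 499.8 and 461.1 CPM in LPDS, a change of 0.49 ± 0.10 (edgeR adjusted p = 0.000809). AIMP2 (EIF2AK1), a scaffold of the multisynthetase complex, changed by 0.41 ± 0.10 (adjusted p = 0.00789), and it and WARS1 were the 2 of 7 readable tRNA charging genes that rose. Neither gene had overlapping groups, as was the case upward for 13.4% of all source genes. Both calls were lost with the split term, at 0.48 and 0.36. That of AIMP2 was also lost without replicate 2 of FBS or of LPDS, at 0.34 and 0.37 (edgeR adjusted p = 0.0832 and 0.0621). CEBPB (CEBPB-AS1), a stress-responsive factor, differed along the library split, with 26.1, 31.2 and 23.4 CPM in FBS and 23.7, 85.1 and 53.2 CPM in LPDS, and did not pass (1.02 ± 0.34, edgeR adjusted p = 0.116).

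Single genes of the cell cycle passed, where 3.69% of all source genes rose and 3.14% fell. MCM2 (ENSG00000285600), part of the helicase that unwinds DNA for replication, was at 793.9, 736.8 and 744.4 CPM in FBS and at 901.5, 1187 and 1040 CPM in LPDS, and was the 1 of 9 readable replication genes that rose (0.46 ± 0.10, edgeR adjusted p = 0.00287). KIF4A (PDZD11), a chromosome kinesin, was at 75.2, 71.9 and 70.5 CPM in FBS and at 58.2, 31.5 and 46.6 CPM in LPDS, and was the 1 of 4 readable mitosis genes that fell (-0.68 ± 0.18, adjusted p = 0.0198). Both were nearest to FBS in LPDS replicate 1, and both calls were lost with the split term, at 0.25 (adjusted p = 0.522) and -0.32 (adjusted p = 0.729). Without LPDS replicate 2 the MCM2 change was 0.37 (adjusted p = 0.0682), and the KIF4A call was lost without any single SG21 library except LPDS replicate 1, at -0.72 to -0.46 (adjusted p = 0.0529 to 0.275). TPP1 (ENSG00000255680), a lysosomal peptidase, was the 1 of 7 readable lysosome and autophagy genes that fell, by 0.41 on the log2 scale (edgeR adjusted p = 0.0433). NDUFB8 (HIF1AN), a subunit of complex I, was the 1 of 5 readable respiratory chain genes that fell, from 297.8, 299.6 and 264.8 CPM to 268.5, 190.2 and 148.9 CPM (-0.51 ± 0.13, edgeR adjusted p = 0.0143). With the split term the 2 calls were lost, at -0.28 (adjusted p = 0.623) and -0.10 (adjusted p = 0.892). The TPP1 call was lost without replicate 2 or 3 of either medium, at -0.47 to -0.28 (adjusted p = 0.0542 to 0.312), and the NDUFB8 call without FBS replicate 2 or LPDS replicate 2 or 3, at -0.49 to -0.35 (adjusted p = 0.0722 to 0.150). None of the readable genes of the TCA cycle (4), mitochondrial dynamics (3), p53 targets (4) or ribosomal proteins (10) passed, and no interferon-response or mitochondrially encoded gene could be read by source.

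Outside these lists, LBHD1 and PRUNE2 had the largest rises among source genes with groups fully apart and a mean above 48.6 CPM over all 24 libraries. LBHD1 (UQCC3), on chromosome 11 at 62662817 to 62672255, was at 47.8, 43.4 and 43.4 CPM in FBS and at 218.8, 221.1 and 223.0 CPM in LPDS, a log2 fold change of 2.30 ± 0.14 (edgeR adjusted p = 3.6e-17). PRUNE2 (PCA3), on chromosome 9 at 76611376 to 76906087, was at 102.3, 91.4 and 100.0 CPM in FBS and at 321.1, 282.7 and 332.4 CPM in LPDS, a change of 1.67 ± 0.11 (adjusted p = 3.24e-16). The LPDS libraries of both were alike, replicate 1 included. A different stretch of each gene, read in the same libraries, was also higher in LPDS. LBHD1 read under CSKMT was at 1.98, lower than the 2.30 above, and PRUNE2 read under GCNT1 was at 1.66, close to the 1.67 above.

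RIMS4 (KCNK15), a synaptic membrane protein, rose from 320.9, 309.6 and 352.3 CPM to 477.6, 786.5 and 712.8 CPM (1.01 ± 0.13, edgeR adjusted p = 2.62e-06), with LPDS replicate 1 lower than the other LPDS libraries and a change of 0.54 with the split term (adjusted p = 0.0479). ERMAP (ZNF691-DT), an erythroid membrane protein, rose by 0.80 ± 0.13 (adjusted p = 2.64e-05) and kept its call with that term, at 0.76. TBL3 (NOXO1), a ribosome biogenesis factor, and MTPAP (ENSG00000285824), the mitochondrial poly(A) polymerase, rose by 0.87 and 0.83, and these calls were lost with the term, at 0.45 and 0.56 (adjusted p = 0.429 and 0.322).

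The largest falls beyond ANKRD37, LOX, P4HA2 and TWIST1 were of genes with mixed functions. AKAP8L (ENSG00000279716), a nuclear anchoring protein, fell from 486.2, 531.3 and 550.0 CPM to 325.6, 308.5 and 333.1 CPM, by 0.70 on the log2 scale (edgeR adjusted p = 6.14e-06). CCM2L (ENSG00000226239), a relative of the endothelial adaptor CCM2, fell from 88.1, 97.9 and 82.2 CPM to 46.0, 59.0 and 59.1 CPM, by 0.71 (adjusted p = 0.00331). Both had groups fully apart, which the naming rule for large falls required, and kept their calls with the split term, at -0.68 and -0.96. S100A1 (S100A13), SNAPC3 (PSIP1), HNRNPU (COX20), ARHGAP33 (TEX14BP), PPP1R12A (PPP1R12A-AS1) and TPM4 (ENSG00000279198) fell by 0.70 to 0.93 on the log2 scale. These 6 calls were lost with the split term, where the changes were -0.55, -0.70, -0.59, -0.63, -0.41 and -0.46. Those of S100A1, HNRNPU and TPM4 were also lost without single libraries, S100A1 without LPDS replicate 2 or 3 (-0.89 and -0.80), HNRNPU without LPDS replicate 3 (-0.70) and TPM4 without FBS replicate 2 or LPDS replicate 2 or 3 (-0.69 to -0.59). S100A1 had few reads in SG21, with 19.0, 21.7 and 20.9 CPM in FBS and 14.1, 10.2 and 8.07 CPM in LPDS, while its mean over all 24 libraries was 57.8 CPM. The 6 genes include a splicing-associated RNA-binding protein (HNRNPU), a myosin phosphatase subunit (PPP1R12A) and a tropomyosin (TPM4).

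In all, 491 of 12822 entries passed in SG21, 3.83%, of which 240 were higher, 1.87%, and 251 lower, 1.96%. Of the 2740 source genes 187 passed, 6.82%. The count moved with single libraries, and it was 221 without LPDS replicate 2, 846 without LPDS replicate 1 and 91 with the split term, 0.71%. Source genes that passed with the split term numbered 36, 1.31%. The replicate 1 library had the same direction as the others in most called entries, but often a smaller shift. It lay outside the FBS range in the called direction in 462 of the 491 entries, and its shift was under 0.5 of that of replicates 2 and 3 in 134 of them. All 3 LPDS libraries lay outside the FBS range in the called direction in 461 of the 491, so groups that lie apart add little to a call. These counts describe entries that were called with the same libraries. Between replicates of LPDS, the chi-square per degree of freedom over entries was 9.48 and 7.97 for replicate 1 against 2 and 3, 3.15 for 2 against 3, and 2.88 to 3.80 among FBS replicates.

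**Figure D3:**
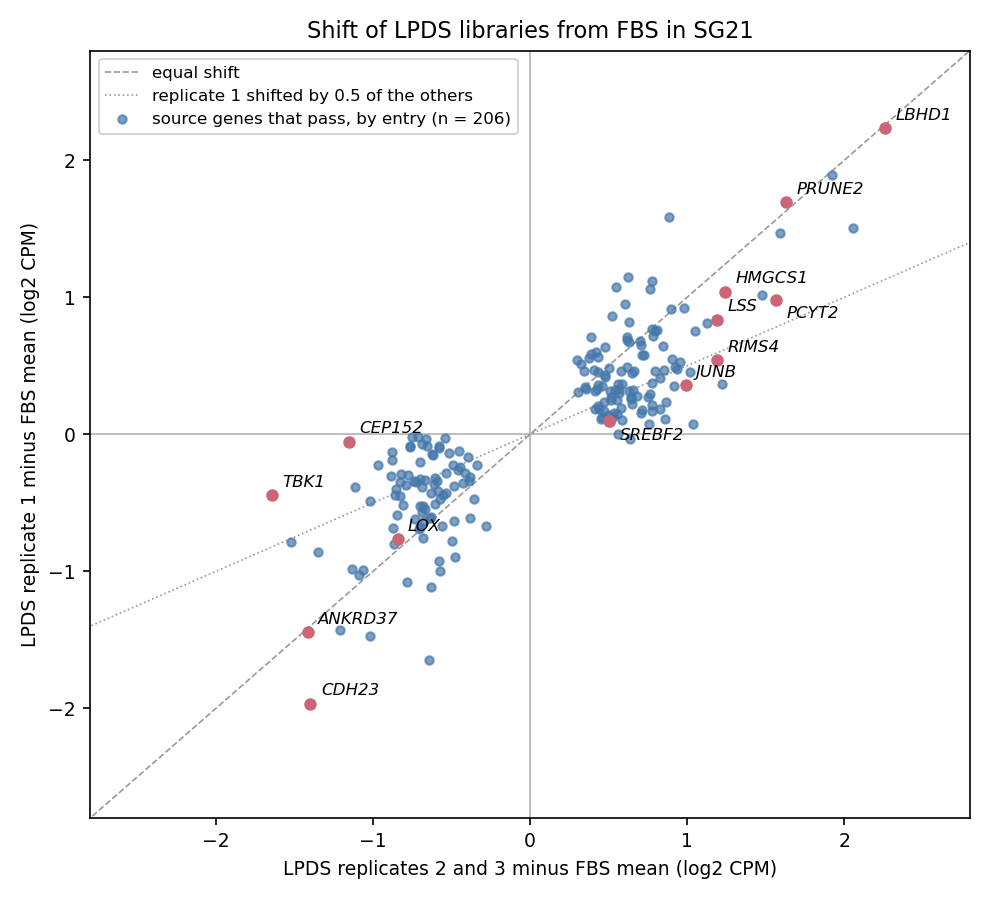
Shift of LPDS replicate 1 (vertical axis) against the shift of LPDS replicates 2 and 3 (horizontal axis) from the FBS mean, in log2 CPM, for the 206 called entries of SG21 that are read as source genes. Points on the dashed line shifted equally, and SREBF2, JUNB, CEP152 and TBK1 lie nearer the horizontal axis while LBHD1, PRUNE2, ANKRD37 and LOX lie near the dashed line.

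The levels of some genes differed between the LPDS libraries of SG21, and those of UQCRB did so along the library split. UQCRB (UQCRB-AS1), a subunit of complex III, was at 274.5, 214.2 and 236.2 CPM in FBS and at 293.3, 89.7 and 76.3 CPM in LPDS. LPDS replicate 1 was at the FBS level, and replicates 2 and 3 were at the level of the 6 SGCTRL libraries, 81.2 to 92.2 CPM, while parental and SG12 libraries ran from 215.7 to 322.8 CPM. It was not called (-0.66 ± 0.32, edgeR adjusted p = 0.310). The 6 called entries with average log2 CPM of at least 2 that differed most between LPDS replicate 1 and replicates 2 and 3 were PANK3, MT-CYB, SCD, TBK1, CCND2 and PAF1. Replicates 2 and 3 differed from replicate 1 by 1.11, -1.10, 1.28, -1.20, 1.13 and -1.11 on the log2 scale, in that order. SGCTRL differed from parental cells in FBS by -0.06, -0.18, 0.07, -0.55, -0.21 and -0.49 for the same entries. SCD, the stearoyl-CoA desaturase, had few reads under its own name, with 10.5, 6.99 and 17.3 CPM in FBS and 15.6, 40.9 and 40.7 CPM in LPDS. TBK1 (ENSG00000277895), a kinase of innate immunity, was at 14.9, 18.7 and 18.7 CPM in FBS and at 12.2, 7.10 and 2.20 CPM in LPDS. The difference of LPDS replicates 2 and 3 from replicate 1 had a Pearson correlation of 0.0045 and a Spearman rank correlation of 0.028 with the difference of SGCTRL from parental cells in FBS over all 12822 entries. Over the 2740 source genes these values were 0.29 and 0.33, and over the 491 called entries 0.28 and 0.31. Entries are not independent, the libraries share their low share of ambiguous reads, and its part in these levels was not tested.

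**Figure D4:**
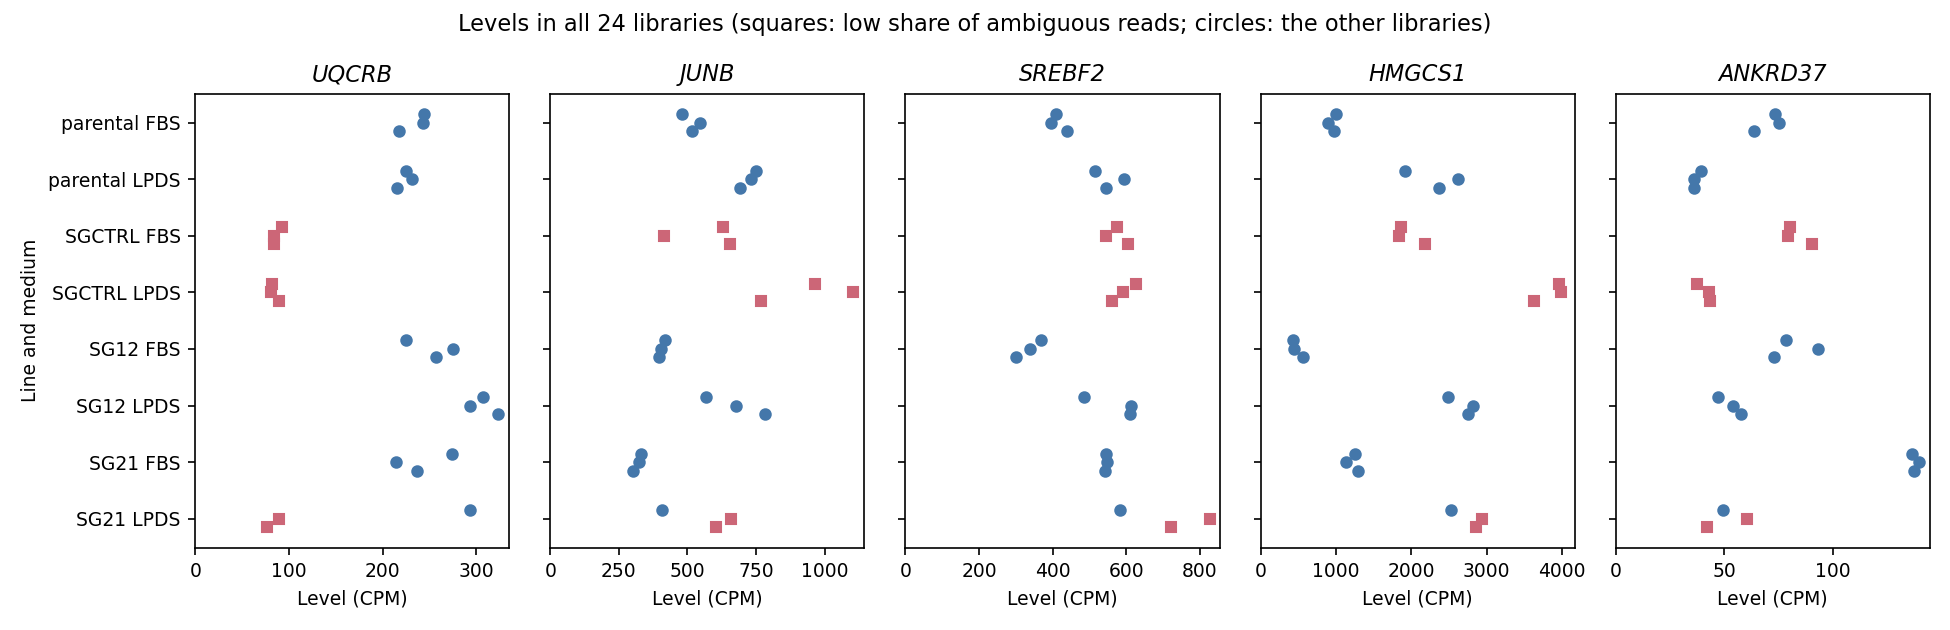
Levels in CPM of 5 genes in all 24 libraries by line and medium, with squares for libraries with a low share of ambiguous reads and circles for the others. UQCRB is at 76.3 to 92.2 CPM in every square and at least 214.2 CPM in every circle, whereas in SG21 the circle and the squares in LPDS both lie above the FBS circles for HMGCS1 and below them for ANKRD37.

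Entries without a source gene cannot be assigned to a messenger RNA with certainty, since counts lay mostly on the strand opposite to the name. Among protein-coding entries read under their own name, ARHGEF39 had a large and even fall. It was at 1123, 1405 and 1283 CPM in FBS and at 527.0, 680.0 and 514.7 CPM in LPDS, a log2 fold change of -1.14 ± 0.10 (edgeR adjusted p = 3.38e-12) that was -1.27 with the split term. The groups were wide apart. The entry covers 1111 bases of CCDC107 and 643 bases of CA9, the carbonic anhydrase that is a known target of HIF-1, and these cannot be told apart there. The other large falls were of MT-CYB (-2.18 ± 0.47), ACAP1 (-1.02 ± 0.18) and SEC14L2 (-0.91 ± 0.21), and ACAP1 kept its call with the split term, at -1.19. All 13 listed genes of the mitochondrial genome were tested under their own names, and 2 fell and 0 rose, beside 1.96% of all entries that fell. Their median log2 fold change was -1.63. MT-CYB, 1 of the 2 that fell, was at 924.0, 970.5 and 698.4 CPM in FBS and at 298.1, 126.0 and 150.4 CPM in LPDS. Its call was lost with the split term, at -1.53 (adjusted p = 0.434), and without LPDS replicate 2 or 3, at -1.94 and -2.05 (adjusted p = 0.0842 and 0.0779). The largest rises were of HK2 (1.10 ± 0.16), the entry of a hexokinase, MAST2 (0.92 ± 0.16), ARRDC1 (0.71 ± 0.14) and DGKQ (0.71 ± 0.19). MAST2 alone kept its call with the split term, and DGKQ was at the FBS level in LPDS replicate 1, with 41.2 CPM there against 61.9 and 80.3 CPM in the other LPDS libraries.

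The cell type label could be checked only in part. None of 15 epithelial, 12 leukocyte or 7 endothelial markers could be read by source gene, and of 17 gastric markers only GATA6 (ENSG00000266283) could, with a log2 fold change of -0.20 ± 0.14 that did not pass. Under their own names the epithelial markers summed to 62.0 to 84.8 CPM in FBS and 68.3 to 80.2 CPM in LPDS, with 2 of 15 at 0 in all 6 libraries. The leukocyte markers summed to 138.3 to 146.3 CPM in FBS and 109.5 to 139.0 CPM in LPDS, and 3 of 12 were at 0. Such sums hold reads of either strand and do not tell cell types apart. Of 11 fibroblast markers ACTA2, FAP and THY1 could be read, at 0.41, 0.15 and 0.08, and none passed.

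Few entries differed between the response of SG21 to LPDS and that of SGCTRL. With 6 libraries a side, 6 of 12822 entries differed between them, 0.0468%, and 1059 were at an unadjusted p under 0.05. MCM2 rose in SG21 and was at -0.31 in SGCTRL, a difference of 0.77 ± 0.14 (edgeR adjusted p = 0.0214). SLC7A11 was at 0.04 in SGCTRL, a difference of 0.73 ± 0.15 (adjusted p = 0.0452). TPP1 was at 0.40 in SGCTRL, a difference of -0.80 ± 0.17 (adjusted p = 0.0465). The other 3 were TTLL1 (TTLL1-AS1), a tubulin polyglutamylase subunit, and the entries RHBDL1 and ENSG00000288612, all lower. With the split term edgeR called 0 entries, with 578 at an unadjusted p under 0.05, and with its spread estimated without robust fitting it called 0, with 1070 at that p, while DESeq2 called 32 in the main design. For sterol genes the differences did not pass, at 0.20 ± 0.14 for HMGCS1 (edgeR adjusted p = 0.746), 0.32 ± 0.14 for LSS (adjusted p = 0.519) and 0.39 ± 0.17 for TMEM97 (adjusted p = 0.536). LBHD1 and PRUNE2 rose in SGCTRL as well, by 2.42 and 1.49 on the log2 scale, and ANKRD37 and LOX fell by 1.01 and 0.63. In parental cells LOX was at -0.15 and did not pass (edgeR adjusted p = 0.426). Without LPDS replicate 1 of SG21 the number of differences was 250, and without any other single library it was at most 2. A difference that did not pass is not shown to be absent.

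Against the response of parental cells, 88 entries differed, 0.686%, and 10 with the split term. Of these, 25 were read as source genes. MCM2 was again higher (0.66 ± 0.14, edgeR adjusted p = 0.0120) and ARHGAP33, a GTPase-activating protein, lower (-1.15 ± 0.21, adjusted p = 0.00340). LOX (-0.68 ± 0.14, adjusted p = 0.00913) and AKAP8L (-0.74 ± 0.15, adjusted p = 0.00578) were also lower, and TUBA1B (TUBA1B-AS1), an alpha-tubulin, was higher (0.43 ± 0.10, adjusted p = 0.0314). SLC7A11 rose in both lines, with a difference of 0.04 ± 0.15 (adjusted p = 0.945). Both comparisons use the same 6 SG21 libraries, so their agreement for MCM2 is not independent.

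SG21 and SG12, the 2 lines labelled as TMEM97 knockouts, responded differently to LPDS. Of 12822 entries 1682 differed, 13.1%, and 861 with the split term. The rise of HMGCS1 was smaller in SG21 by 1.29 ± 0.14 on the log2 scale (edgeR adjusted p = 2.34e-09). In FBS the mean level of HMGCS1 was 1228 ± 86.9 CPM (SD, n = 3) in SG21 against 485 ± 73.2 CPM in SG12, and in LPDS it was 2775 ± 222.8 against 2687 ± 180.2 CPM. The 2 lines were thus within their spread of each other in LPDS and apart in FBS. WARS1, AIMP2 and SLC7A11 rose in SG21 and were at -2.23, -1.63 and -1.10 in SG12, with differences of 2.72 ± 0.14, 2.04 ± 0.14 and 1.87 ± 0.15 (adjusted p = 6.59e-21, 4.11e-16 and 2.09e-13). TUBA1B was at -0.01 ± 0.07 in SG21 and at 1.19 in SG12. Among source genes 963 passed in SG12, 35.1%, and 57 of them passed in the same direction in SG21, 30.5% of the 187 in SG21 and 5.92% of the 963, while 41 passed in opposite directions. In SGCTRL 101 passed, 3.69%, of which 39 did so in the same direction in SG21 and 0 in the opposite one, 20.9% of the SG21 and 38.6% of the SGCTRL genes. In parental cells 130 passed, 4.74%, of which 33 shared their direction with SG21 and 0 opposed it, 17.6% and 25.4% of the 2 sets.

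**Figure D5:**
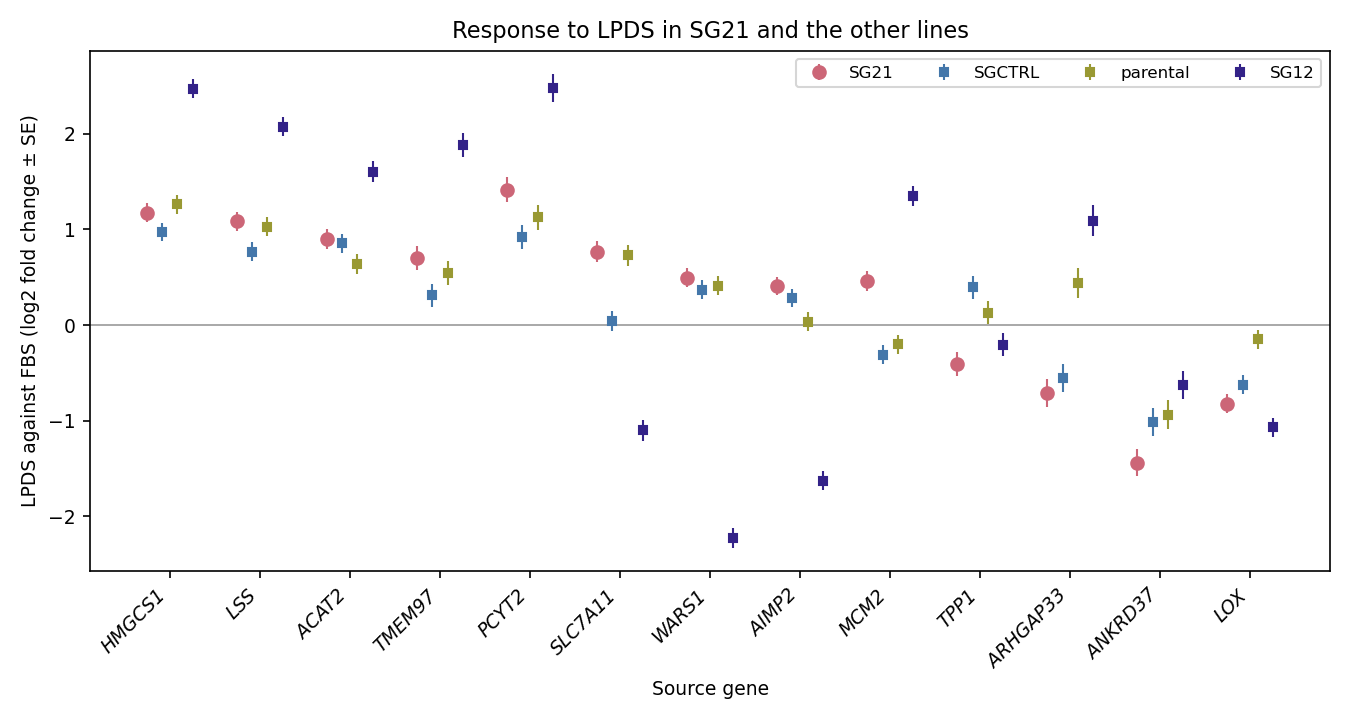
Log2 fold change of LPDS against FBS with its SE for 13 source genes in SG21 (circles), SGCTRL, parental cells and SG12 (squares). HMGCS1, LSS, ACAT2 and PCYT2 lie highest in SG12, at 1.60 to 2.47, and SLC7A11, WARS1 and AIMP2 are below 0 in SG12 alone.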

How the data were processed

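RNA of HGC27 cells was made into stranded, ribosome-depleted libraries with an Illumina kit, per the labels' protocols. The submitters' processing notes name bcl2fastq, STAR and hg38, without versions. Each deposited file holds unnormalized counts for 61578 gene entries, and which program counted them, with what strand setting and annotation, is not given in the sources used here. The 5 closing entries (reads counted to no gene, 94.3% to 94.6% of uniquely aligned reads, ambiguous and others) stayed out of the tests.

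For the tests, edgeR 4.0.16 in R 4.3.3 was applied to the counts (quasi-likelihood F test with robust spread, TMM scaling, filterByExpr, which kept 12822 entries) over all 24 libraries with a mean per line and medium. Benjamini-Hochberg adjusted p under 0.05 over all entries was a pass. Standard errors were back-calculated from the F statistic and are approximate. Differences between lines are interaction terms. The robust setting was chosen after an earlier fit without it and is not in the written design. Replicate numbers did not pair the samples (correlations of deviations 0.06, 0.06 and 0).

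Source genes come from GENCODE 29: the gene on the other strand that shares 50 exon bases or more with the entry and accounts for 80% or more of all such sharing. The mean had to exceed 5.74 CPM, the 90th percentile among protein-coding entries that face no gene. Entries with over 50% likely reads of their own gene were set aside. For single-library shifts 2 CPM were added. The scripts were tested on simulated data.

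The naming rule takes TMEM97, NPC1, PGRMC1, SREBF1, SREBF2, INSIG1 and readable cholesterol genes, up to 5 passing members of each of 31 lists by adjusted p, the 12 largest rises and falls of source genes above 48.6 CPM on average over all 24 libraries with groups apart, 4 rises and falls each of own-name entries under the same conditions, up to 6 differences per direction and line, and 6 entries in which LPDS replicate 1 differs most. UQCRB, CEBPB, ERO1A, CEP152 and list members that did not pass were named after their values were seen. The comparison, lists and rules were chosen with earlier results of these data known. Alternatives were DESeq2 1.42.0 (size factors, Wald test), other count filters, the spread of the compared groups alone, a replicate block, a term for the library split and libraries left out. A spread without robust estimation was added after seeing the data. Some results are not reported here.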

Additional observations from a re-analysis of the deposited data

Results flagged for a closer look

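The results here are differences between the LPDS response of SG21 and that of another line that passed the edgeR interaction test, as log2 values of SG21 minus the other line. Against SGCTRL they were 0.77 for MCM2, 0.73 for SLC7A11, -0.803 for TPP1, -1.14 for TTLL1, -2.01 for the entry RHBDL1 and -0.895 for the entry ENSG00000288612. MCM2, SLC7A11 and TPP1 are a helicase subunit, a cystine transporter and a lysosomal peptidase.

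Against parental cells and SG12 many more passed, and the results given are among those with the lowest adjusted p in each direction, 6 at most. Against parental cells they include the source genes MCM2 at 0.662 and ARHGAP33 at -1.15. Entries that were higher in SG21 were PRKG1-AS1 at 1.27, which covers 212 bases of DKK1 and 169 of PRKG1, LARP1 at 1.32, CALR at 1.32, NPM1 at 1.67 and TKT at 2.31. Lower were RHBDL1 at -2.57, SMARCD3 at -1.42, ACAP1 at -1.48, SERINC4 at -1.14 and CCDC183-AS1 at -1.56. In SG21 itself, ACAP1 went from 74.9, 81.6 and 91.3 CPM to 36.3, 35.2 and 51.0 CPM. NPM1 and TKT had few reads there, with means of 12.2 and 7.26 CPM in FBS and 22.5 and 17.85 CPM in LPDS. Their calls in SG21 were lost with the split term, at 0.44 and 1.18, and without any single SG21 library except LPDS replicate 1. In parental cells NPM1 and TKT were at -0.79 and -1.03. LARP1 and CALR did not pass in SG21 itself, with log2 fold changes of 0.58 and 0.12 (edgeR adjusted p = 0.0783 and 0.828). The entry CALR had a mean of 26.3 CPM in SG21 in FBS and was at -1.20 in parental cells. Read by its source entry ENSG00000267458, at a mean of 1983 CPM in SG21 in FBS, CALR differed from parental cells by -0.11 ± 0.26 (edgeR adjusted p = 0.896). The difference under the own name was thus not seen there.

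Against SG12 the source genes among those higher in SG21 were WARS1 at 2.72, SAMD11 at 2.74, SNTB1 at 2.28, AIMP2 at 2.04 and SLC7A11 at 1.87, and the entry L3MBTL2 was at 5.54. Lower were HMGCS1 at -1.29, TUBA1B at -1.2, RUSC1-AS1, which covers FDPS, at -0.98, and the entries OPN1SW at -2.19 and ENSG00000255508 at -2.4. SAMD11, SNTB1, TUBA1B, OPN1SW and ENSG00000255508 did not pass in SG21 itself.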

How the results depend on the processing

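Of 70 named calls in SG21, 27 were kept under every alternative run, among them TMEM97, HMGCS1, LSS, ACAT2, PCYT2, ACLY, LPCAT3, SLC7A11, ANKRD37, LOX, P4HA2, LOXL2, GAPDH, ALDOC, LBHD1 and PRUNE2, and the other 43 were lost with the term for the library split, which leaves 1 LPDS library. Directions turned only for IDI1 without LPDS replicate 1 (-0.21), and for TUBA1B without FBS replicate 3 (0.0069) or LPDS replicate 1 (0.035), none of them called. The value of IDI1 was 0.39 without LPDS replicate 3, and that of TUBA1B was lowest, -0.046, without FBS replicate 2. The SG21 count of 491 was 91 with the split term, 89 without LPDS replicates 2 and 3 together, and 221 to 846 without a single library. With the spread of the compared groups alone the SG21 count was 402. The replicate block gave 579 and changed none of the named calls. The difference from SGCTRL (6 entries) ran from 0 to 250 without single libraries, highest without SG21 LPDS replicate 1. It was 0 with the split term, 0 without LPDS replicates 2 and 3, 0 without robust spread, 32 with DESeq2, 11 without a count filter and 17 with the spread of the compared groups. The difference from parental cells (88) ran from 31 to 383, and was 10 with the split term, 8 without LPDS replicates 2 and 3, 223 with DESeq2, 206 without a filter, 37 with the spread of the compared groups and 155 with the replicate block. The difference from SG12 (1682) was 861 with the split term, 835 without LPDS replicates 2 and 3, and 1234 to 2088 without single libraries. DESeq2's size factors moved the median of all entries from 0.01 to 0.02 and shared 487 of the calls. The causes were not tested. At 2.55 to 3.96 M gene reads per library, entries of few reads limit the folds.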
